A study of Mus musculus with 12 samples.

Results

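The regions described here were 544 PAR-CLIP clusters that lay in introns of very long protein-coding genes in mouse neural stem cells, out of 4762 clusters in 1 deposited list. A cluster is a stretch of genome in which sequenced reads pile up on 1 strand, and its value in the list is its number of reads. A cluster was a member when its exact sequence was listed once, its midpoint lay in no exon of GENCODE M21 on either strand, and it fell inside a protein-coding gene spanning 200 kb or more, on either strand. Of all clusters, 3298 had a sequence listed once, 2763 of these lay outside exons and 1194 of these lay in a protein-coding gene. Where genes overlapped, the longest was taken as the host, and 13 clusters in Cdk8, Jarid2, Filip1l, Cmss1, Arhgap21, Sspn and Phkb were left out with their 71841 reads. The members made up 11.4% of the clusters but held 15942 of the 553902 listed reads, or 2.88%. They lay in 371 host genes, and 637 clusters chosen in the same way in shorter genes, with 15405 reads, served for comparison. The member in the shortest host had 5 reads and lay in Pcbp3 (200031 bases), and the cluster just below the limit had 9 reads and lay in Atp9b (199920 bases).

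The study made 12 libraries, 4 in each of 3 groups, from female C57BL/6 neural stem cells derived from E14.5 embryos. One group was Smchd1GFP/GFP, in which Smchd1 carries a GFP tag on both alleles. Another had the same genotype with no crosslinking, although its treatment protocol still describes the light dose, and the third was untagged Smchd1+/+ and crosslinked. All groups were labelled with 100 µM 4-thiouridine for 24 hours, and the protocol gives 0.15 J/cm2 of light at 365 nm. The list gives a single read count for each cluster and assigns no read to a library. No group could therefore be compared with another, no value has a replicate error, and intervals and tests below cover counting error only. Clusters in 1 host or at 1 locus are not independent of each other, so these intervals are too narrow to that extent.

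Smchd1 is a chromatin protein of the SMC family that keeps genes silent on the inactive X chromosome and in some imprinted and clustered loci. PAR-CLIP, the method used, feeds cells a photoreactive uridine so that light joins RNA to the protein that touches it, and the joined uridines are later read as C. Genes of this length are mostly intron, take hours to transcribe, and in the brain encode many synaptic adhesion molecules, ion channels and receptors.

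The members shared a start and a length. Of the 544, 490 (90.1%, Wilson 95% interval 87.3 to 92.3) began with AC, against 4.56% of adjacent base pairs further inside the members. The next base after AC was T in 259, A in 127, C in 97 and G in 7. Lengths ran from 80 to 135 bases with a median of 85, and 528 members (97.1%) were 83 to 86 bases long. Starts other than AC included AA in 28, AT in 7, CA in 6 and TA in 5. In shorter hosts 575 of 637 clusters (90.3%) began with AC, and the odds ratio of the members against them was 0.978 (0.666 to 1.44, Fisher's exact test, two-sided adjusted p = 0.922).

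In 2 places a member on the minus strand and a member on the plus strand began side by side and ran apart, with 0 bases between their starts. These are shown because they give the bases on both sides of a start for these 4 members. Both are written 5′ to 3′ on the plus strand of mm10, with the minus-strand member reverse complemented, and the capitals mark the 4 bases across the junction. The Trpm3 pair lay at chr19:22272075-22272242 and the Tenm2 pair at chr11:36455516-36455686.
Trpm3: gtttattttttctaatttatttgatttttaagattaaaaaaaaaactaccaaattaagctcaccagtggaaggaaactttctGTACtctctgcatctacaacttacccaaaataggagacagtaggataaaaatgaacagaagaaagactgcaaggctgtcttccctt
Tenm2: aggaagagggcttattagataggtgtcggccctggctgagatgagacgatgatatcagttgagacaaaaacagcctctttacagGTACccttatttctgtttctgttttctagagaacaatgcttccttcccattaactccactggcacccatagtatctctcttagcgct
The Trpm3 members, in a gene for a cation channel, had 18 reads on the minus strand and 16 on the plus strand. Those in Tenm2, a teneurin adhesion protein gene, had 17 and 8. All 4 began with AC, and 2 clusters that begin with AC and meet in this way always have GTAC at the junction, so the pairs say nothing about the other members.

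GTAC was rare inside the members. It occurred in 2 of the 544, the fewest of the 16 palindromic words of 4 bases, of which CGCG occurred 5 times, GCGC 12 times and ATAT 324 times. In shorter hosts GTAC occurred in 8 of 637 clusters and was not the fewest there, since CGCG occurred 3 times. The 2 members with the word, which is in capitals, were in Nkain2, on the plus strand at chr10:31718896-31718980 with 27 reads, and in St6galnac3, on the plus strand at chr3:153563140-153563225 with 12 reads.
Nkain2: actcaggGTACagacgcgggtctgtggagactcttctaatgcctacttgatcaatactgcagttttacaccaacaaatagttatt
St6galnac3: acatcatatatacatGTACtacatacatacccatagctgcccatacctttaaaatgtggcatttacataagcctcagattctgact
GTAC is also the site at which the restriction enzyme RsaI cuts between T and A. No such digest is named in the labels' protocols, and what gave the shared start was not tested. The list also cannot tell reads of RNA from reads of genomic DNA, a limit on every read count given here. The bases before the other members' starts were not read here, since no genome sequence was used. They could be read from transcripts for listed clusters that lie in 1 exon, which are not members: of 478 such clusters beginning with AC, 358 (74.9%, 70.8 to 78.6) were preceded by GT, and of 102 beginning otherwise 10 (9.80%, 5.41 to 17.1) were.

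Other members lay close together facing each other. Within 300 bases of another listed cluster lay 47 members (8.64%), in 30 pairs, of which 19 faced each other, 5 lay back to back and 6 were on the same strand. In 11 facing pairs both clusters began with AC, and the outer length of such a pair was 104 to 239 bases with a median of 163. The 3 pairs below show what such a piece looks like, written on the plus strand of mm10. Capitals mark the AC that begins the plus-strand member and the GT that is the complement of the AC beginning the minus-strand member. They lay at chr4:77937422-77937551 (Ptprd), chr10:13771322-13771478 (Aig1) and chr9:27953769-27953936 (Opcml).
Ptprd: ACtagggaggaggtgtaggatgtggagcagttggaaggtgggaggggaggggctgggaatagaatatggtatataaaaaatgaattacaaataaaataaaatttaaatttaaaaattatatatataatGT
Aig1: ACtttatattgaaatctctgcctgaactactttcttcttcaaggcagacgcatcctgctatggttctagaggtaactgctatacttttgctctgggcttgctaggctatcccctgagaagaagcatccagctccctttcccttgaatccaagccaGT
Opcml: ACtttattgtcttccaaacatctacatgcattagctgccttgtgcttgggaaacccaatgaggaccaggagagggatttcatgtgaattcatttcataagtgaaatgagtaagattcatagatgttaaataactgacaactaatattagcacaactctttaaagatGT
Reads on the plus and minus strands were 17 and 18 in Ptprd, a receptor phosphatase of synapses, 43 and 59 in Aig1, and 15 and 17 in Opcml, a cell adhesion gene. Across the 11 pairs the median ratio of the larger to the smaller count was 1.21, and it was under 2 in 9 of them. The 2 others were Dync2h1, with 6 and 15 reads, and Gphn, with 17 and 1332. The pairs were looked for after the data had been seen and are given without a test.

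**Figure D1:**
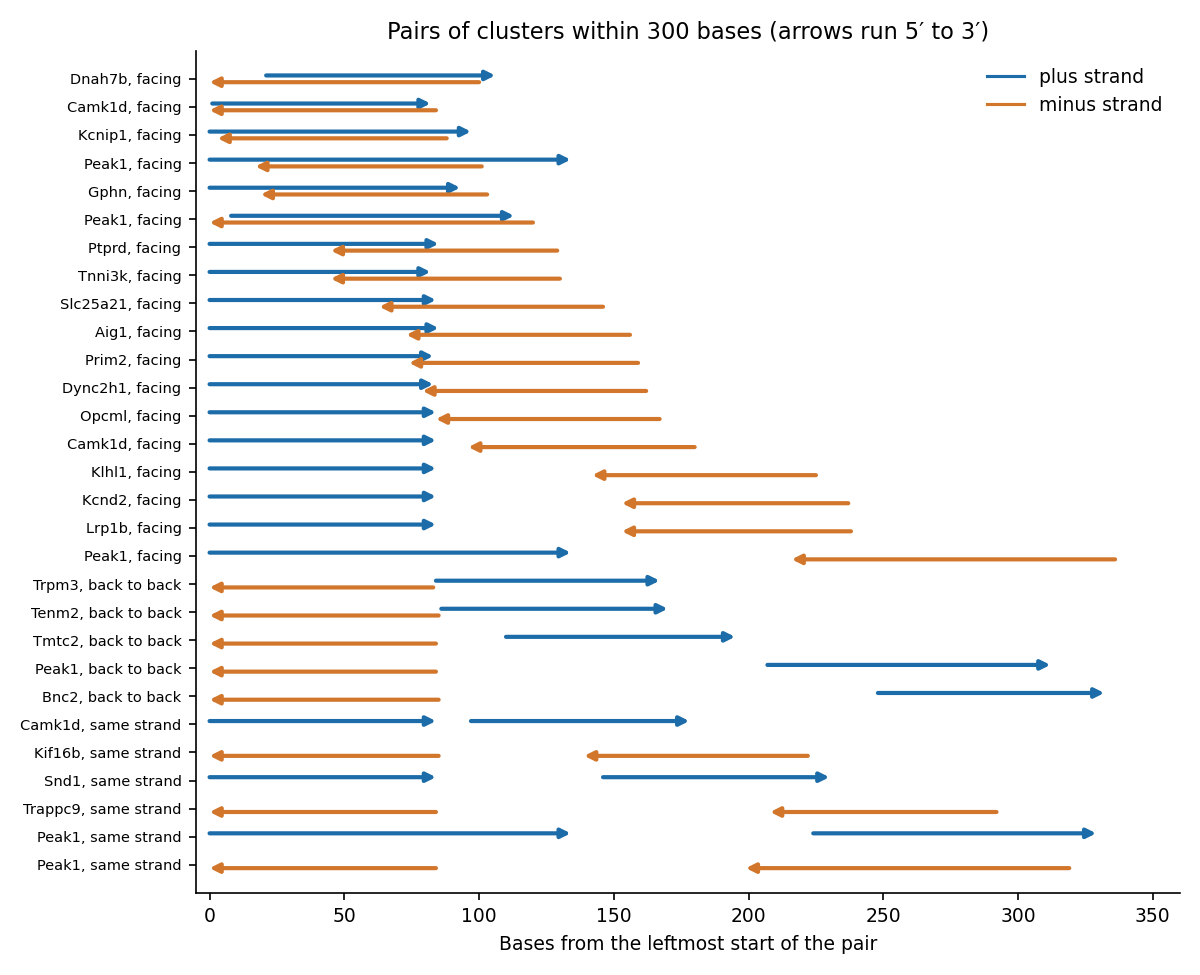
Each row is 1 of 29 of the 30 pairs of listed clusters within 300 bases that include a member (1 facing pair is not reported by name and not drawn), drawn to scale in bases from the leftmost start, with arrows running 5′ to 3′ and colour giving the strand. The facing pairs are at the top, and the Trpm3 and Tenm2 pairs below them meet with 0 bases between.

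The reads of the members were concentrated in a few clusters that were not alone in the list. The 12 with the most reads held 7929 reads, 49.7% of the members' total, and 3 of them, in Lingo2, Dnah7b and Gphn, held 28.4%. All 12 shared a word of 30 bases with another listed cluster, and 2 of the 12 began with AC. The exact sequence of every member is listed once, but 54 members (9.93%) shared such a word with a cluster elsewhere in the genome, so these were not single copies in that looser sense. They held 48.9% of the members' reads, and 29 of them (53.7%, 40.6 to 66.3) began with AC. The 484 members that shared no word held 42.3% of the reads, had 5 to 59 reads each with a median of 13, and began with AC in 456 cases (94.2%, 91.8 to 96.0). The 54 had a median of 23.5 reads, and 17 of them had 50 or more, against 1 of the 484. The 6 remaining members shared a word with a cluster at their own locus only.

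The sequences below are those of the members with the most reads in Lingo2, Dnah7b and Kcnip1, with that of Grik2, and are shown to make this sharing visible. The Lingo2 member, at chr4:35901657-35901741 on the minus strand, had 1842 reads and shared words with 159 clusters on 21 chromosomes. Over 84 bases it was identical to a sequence listed at 25 loci, with 2432 reads at the locus compared. The member in Grik2, a kainate receptor gene, at chr10:49302256-49302339 on the minus strand, had 130 reads and matched it at 83 of 84 bases. Capitals in these 2 mark the base that differs, G76A counted from 1 at the 5′ end of the Lingo2 member.
Lingo2: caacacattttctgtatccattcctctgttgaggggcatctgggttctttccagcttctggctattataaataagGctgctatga
Grik2: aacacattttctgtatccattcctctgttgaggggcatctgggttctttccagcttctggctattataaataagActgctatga
Dnah7b: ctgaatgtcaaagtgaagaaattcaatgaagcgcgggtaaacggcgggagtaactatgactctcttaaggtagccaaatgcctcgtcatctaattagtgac
Kcnip1: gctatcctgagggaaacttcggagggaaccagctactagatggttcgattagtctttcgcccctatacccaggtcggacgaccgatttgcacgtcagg
The Dnah7b member, at chr1:46076066-46076166 on the minus strand, opposite to this dynein gene, had 1358 reads. All of its 101 bases matched a cluster on chromosome 3 with 2776 reads. The Kcnip1 member, at chr11:33754944-33755041 on the plus strand, opposite to this potassium channel regulator gene, had 789 reads, and its 98 bases matched a cluster in Cmss1 with 1604 reads. A second Kcnip1 member faced it with 334 reads.

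Peak1, a pseudokinase gene, had members with 751 and 537 reads on the strand opposite to the gene. The first touched Gm24270, a gene of 57 bases annotated as a miRNA, and was identical over 132 bases to a cluster in Zc3h7a with 754 reads. The second matched another Zc3h7a cluster, with 538 reads, at 95 of 95 bases. Of the other members with 100 or more reads, Gpr158 had 253, Astn2 239, Tmtc1 218 and Ccdc171 146. Each matched a cluster on another chromosome at all but 1 to 3 of the overlapping bases. By their letters the 5 members of 100 or more reads in Dnah7b, Kcnip1 and Peak1, which held 3769 reads or 23.6% of the members' total, resemble ribosomal RNA. No member shared a 30-base word with a transcript annotated as ribosomal RNA, the full ribosomal RNA precursor was not analysed here, and whether these reads came from the introns was not tested. A short cluster sequence that occurs in several places can take reads from any of them, and how the authors divided reads among copies is not stated in the labels or the list.

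Gphn, which encodes the inhibitory synapse scaffold gephyrin, differed from the other members with 1000 or more reads in the words it shared. Its member with 1332 reads shared no 30-base word with any cluster outside its own locus. It did share 1 or more such words with transcripts of Lars2, a leucyl-tRNA synthetase gene. It lay at chr12:78350930-78351014 on the minus strand, opposite to the gene and 7.5 kb from the nearest exon. By its letters it too resembles ribosomal RNA, though it is not in the 3769 reads given above for such members. The full precursor was not analysed for it either. Whether its reads came from this intron was not tested. The pair it formed with the facing member of 17 reads is printed on the plus strand, with the AC and the complement of the AC that begin the 2 clusters in capitals.
Gphn: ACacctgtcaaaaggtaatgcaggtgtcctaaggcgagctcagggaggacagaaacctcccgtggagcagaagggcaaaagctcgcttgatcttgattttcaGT
In all, 81 members shared a 30-base word with an annotated transcript, 46 of which also shared one with a cluster elsewhere, and none of the 81 was contained whole in a transcript. The 455 members (83.6%) with no such word in a transcript or in a cluster elsewhere had 5 to 59 reads and a median of 13. The highest among them included 2 of the 3 Aig1 members (59 and 43 reads), Bnc2 (40), Adamts6 (39), Atxn7l1 (37), Tanc2 (37), Macrod2 (35), Cdh18 (34) and Csmd1 (32). Most members were thus clusters of few reads that lay in unlike genes and shared no long word.

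**Figure D2:**
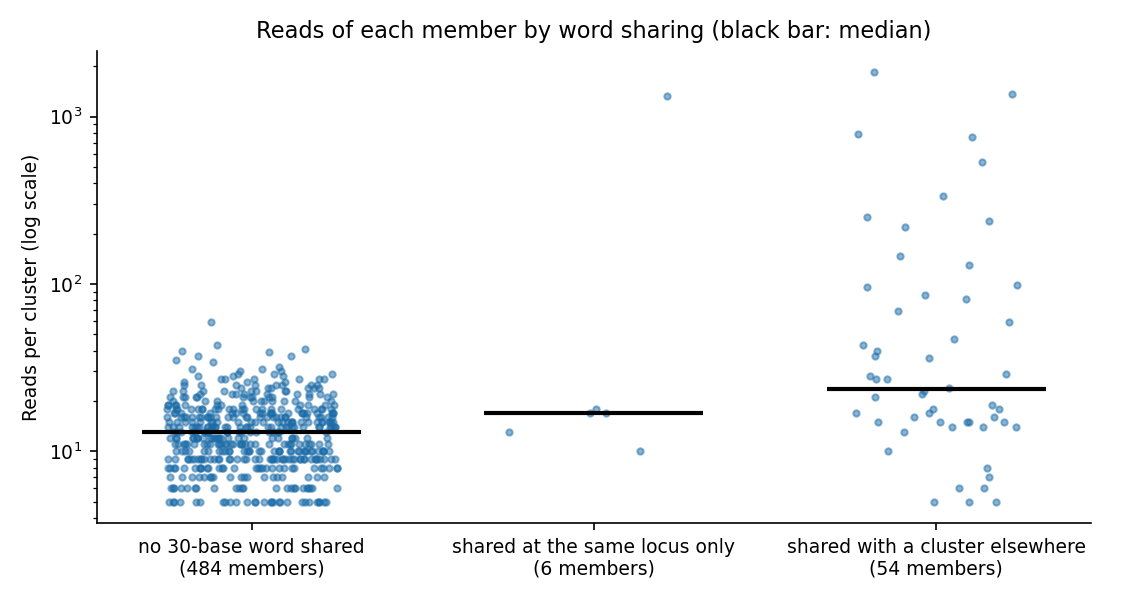
Reads of each member (log scale, 1 point per member, black bar the median) by whether it shares a 30-base word with another listed cluster. Members sharing none stay at 59 reads or fewer, and those sharing a word elsewhere reach 1842.

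Across all members the counts had quartiles of 9 and 18 around a median of 14 and ran from 5 to 1842. The read count was 5 to 9 in 152 members, 10 to 19 in 279, 20 to 49 in 94, 50 to 99 in 7 and 100 or more in 12. Clusters in shorter hosts had a median of 13 and a maximum of 1982. The mean log2 read count was 3.81 in members and 3.75 in shorter hosts, a difference of 0.06 (95% interval -0.06 to 0.18) that did not pass the permutation test (two-sided adjusted p = 0.760). This difference changed with the clusters kept. It was 0.22 (permutation test, adjusted p = 0.00252) with only the cluster of most reads kept in each host. This kept 371 of 544 members but 597 of 637 clusters of shorter hosts, so long hosts gave the highest of more clusters. That choice raises the difference by itself, so this p-value is no test of long against shorter hosts. The difference was -0.015 without clusters sharing a word. It was -0.055 without the 12 members with the most reads, a choice that lowers it by itself, since all 637 clusters of shorter hosts were kept.

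The longer the gene, the more often it held a member. Of 995 protein-coding genes of 200 kb or more, 371 (37.3%) held 1 or more members, against 597 of 21026 shorter genes (2.84%) with 1 or more clusters chosen in the same way. A member was found in 101 of 429 genes (23.5%) of 200 to 300 kb, 132 of 336 (39.3%) of 300 to 500 kb, 90 of 171 (52.6%) of 500 to 1000 kb and 48 of 59 (81.4%) of 1000 kb or more. The median span was 417 kb for genes with a member and 295 kb for those with none. Spearman's rho between span and number of members was 0.33 over the 995 genes, as a description, since both share the length of the gene.

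Per length, the values for hosts of different span lay close together. The density of members outside exons was 1.39 per Mb (95% Poisson interval 1.17 to 1.65), 1.43 (1.22 to 1.65), 1.17 (0.979 to 1.39) and 1.28 (1.05 to 1.55) in the same order of spans. Over all long genes it was 1.32 per Mb (1.21 to 1.44) in 411.5 Mb, and over shorter genes 1.22 (1.13 to 1.32) in 522.6 Mb. The ratio was 1.08 (0.966 to 1.22), which did not pass the exact conditional rate test (two-sided adjusted p = 0.589). With 1 cluster counted per host gene, which counts a long gene with several members once, the ratio was 0.789 (exact conditional rate test, adjusted p = 0.00226). That choice lowers the ratio by itself, since the length was kept whole, so this p-value is no test of density.

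**Figure D3:**
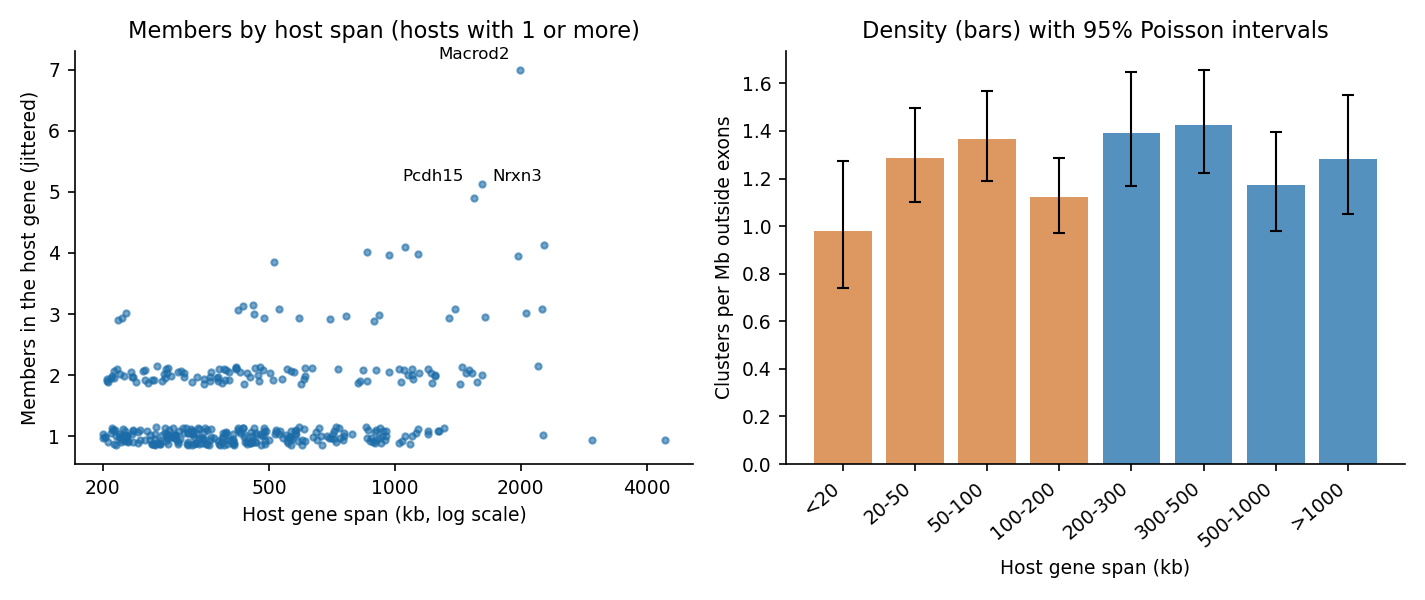
Left, members in each of the 371 host genes against host span in kb (log scale, points jittered vertically). Right, clusters per Mb outside exons by host span with 95% Poisson intervals, shorter hosts in orange and members in blue; the intervals of neighbouring bins overlap.

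Most hosts had 1 member (242 genes) or 2 (100 genes), and 29 had 3 or more. Macrod2, which encodes an enzyme that removes ADP-ribose and lies at a common fragile site, had the most with 7 in 1998 kb, or 3.54 per Mb (1.43 to 7.30). On the gene strand its members had 35, 29, 15, 14 and 8 reads, and on the opposite strand 14 and 6. All 7 lay within the range of 5 to 59 reads of the members that shared no word. Their sequences are printed 5′ to 3′ on their own strand, with a starting AC in capitals, to show how unlike the clusters of 1 host are. The second shared 30-base words with 128 clusters elsewhere and the fourth with 9, and the other 5 shared none. They are ordered by position, from chr2:140688020-140688105 to chr2:142379347-142379432.
Macrod2 1: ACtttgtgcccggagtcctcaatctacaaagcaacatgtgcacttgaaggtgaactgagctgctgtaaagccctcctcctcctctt
Macrod2 2: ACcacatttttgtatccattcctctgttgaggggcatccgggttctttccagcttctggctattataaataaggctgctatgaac
Macrod2 3: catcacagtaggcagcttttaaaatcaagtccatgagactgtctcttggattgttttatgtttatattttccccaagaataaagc
Macrod2 4: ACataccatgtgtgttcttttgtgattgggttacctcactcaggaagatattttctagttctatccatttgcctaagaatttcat
Macrod2 5: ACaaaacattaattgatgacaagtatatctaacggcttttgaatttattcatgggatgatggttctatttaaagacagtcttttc
Macrod2 6: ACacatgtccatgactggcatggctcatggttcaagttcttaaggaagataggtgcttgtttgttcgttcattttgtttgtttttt
Macrod2 7: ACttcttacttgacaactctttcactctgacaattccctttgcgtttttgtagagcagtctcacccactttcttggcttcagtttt

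Neurexins are presynaptic adhesion proteins, and Nrxn3 had 5 members, all on the strand opposite to the gene, with 25, 17, 12, 12 and 6 reads. Pcdh15, a protocadherin gene of sensory hair cells, had 5, 3 on its strand (22, 14 and 14 reads) and 2 opposite (20 and 15). Genes with 4 members included Ptprd, Dlg2, Opcml, Cadm2, Trpm3 and Kcnd2, with 48 to 63 reads each. The 4 members in Dlg2, a postsynaptic scaffold gene, were all opposite to it, with 30, 11, 11 and 10 reads. Kcnd2, a potassium channel gene of 514 kb, had 2 on each strand and the highest density of these hosts at 8.03 per Mb (2.19 to 20.6). Among hosts with 3 members, those in Cntnap2, Fgf14 and Snd1 were all on the gene strand, and those in Adamtsl1, Diaph3 and Ephb1 all on the other. With so few members per host, such splits were not tested. In hosts with 2 or more members, 68 of 129 had members on both strands.

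The longest hosts did not hold the most members. Gm20388, annotated as protein coding over 4435 kb, had 1 member with 9 reads, and Fgfr2, annotated over 2961 kb and encoding a growth factor receptor, had 1 with 14. Dmd, the dystrophin gene, had 1 with 15 reads in 2257 kb. Ptprd (2271 kb) had 4 members and Cntnap2 (2245 kb), a neurexin family gene, had 3 with 9, 7 and 5 reads. In these hosts the density ran from 0.248 per Mb in Gm20388 to 1.78 in Ptprd.

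Grouped by function, the hosts covered most of the gene lists made for long neural genes, and of the lists with 9 or more members the 2 with the longest median span had the largest share of genes with a member. These shares are read against the 37.3% of all long genes. Among synaptic and adhesion genes 37 of 59 (62.7%) held a member, with 74 members and 1.51 per Mb (1.19 to 1.90). Their median span was 805 kb, against 327 kb for all long genes. The most members were in Pcdh15, Nrxn3, Dlg2 and Cadm2. No member was found in Il1rapl1 (1375 kb), Csmd3 (1211 kb), Cdh12 (1140 kb) or Ntm (968 kb). Genes of common fragile sites, places that break when replication is slowed, held a member in 14 of 18 (77.8%), with 30 members and 1.48 per Mb (0.995 to 2.11) at a median span of 1055 kb. After Macrod2 these were led by Gphn, Lrp1b and Naaladl2 with 3 each, and those in Gphn include the facing pair above. Wwox, Dpyd, Nbea and Pard3b had none.

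Ion channel genes held a member in 10 of 28 (35.7%), with 1.49 per Mb (0.900 to 2.33), led by Kcnd2, Trpm3, Kcnip1 and Kcnn2. The 2 Kcnip1 members are the facing ones above that resemble ribosomal RNA. Neurotransmitter receptor genes held a member in 11 of 23 (47.8%), with 13 members. Grm3 had 2, with 29 reads in sum, Grik2 had 1 with 130 and Chrm3 had 1 with 25. Of axon guidance genes 7 of 18 (38.9%) held a member, among them Ephb1 with 3, the netrin receptor gene Dcc with 2, and Epha6 and Ntng1 with 1 each. Robo1, Robo2 and Slit2 had none.

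Among genes for transcription and chromatin 13 of 32 (40.6%) held a member, including Auts2, Npas3 and Mecom with 2 each. Genes for kinases, phosphatases and cyclic nucleotide signalling had the lowest density, 0.907 per Mb (0.581 to 1.35), with a member in 13 of 39 (33.3%). Their leading hosts were Ptprd, Camk1d, Fgf14 and Prkg1. Cytoskeletal and dystrophin complex genes held a member in 12 of 23 (52.2%), led by Diaph3, Myo3b and Sgcz, followed by Ank2. RNA-binding protein genes did so in 7 of 13 (53.8%), with Rbfox1 (54 reads) and Celf2 (28 reads) at 2 members each, Msi2 (26 reads) and Adarb2 (17 reads). For every list of 9 or more members the interval of the density held the 1.32 per Mb of all long hosts.

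**Figure D4:**
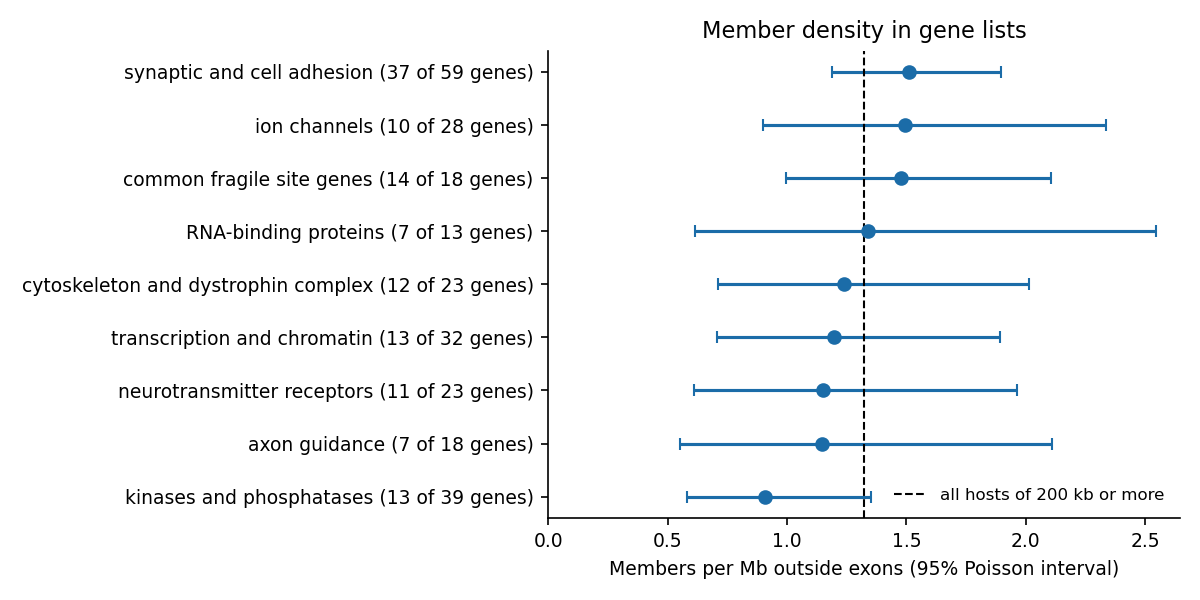
Members per Mb outside exons in each gene list with 9 or more members, with 95% Poisson intervals; brackets give the genes with a member of the long genes in the list, and the dashed line is the value over all long hosts. All intervals include the dashed line.

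Imprinted genes are of interest since Smchd1 acts at several, and 2 of the 4 long ones held members: Trappc9 had 2 (18 and 29 reads) and Cobl 1 (12 reads), all on the gene strand. Of the cell type markers listed, 1 of 12 neural stem cell markers is a long gene, Msi2, and it held a member. Of the neuron markers 3 are long and none held one. The imprinted, stem cell and neuron lists have 4, 1 and 3 long genes, too few to set against the 37.3% of all long genes. Their density intervals were 0.567 to 8.04, 0.069 to 15.2 and 0 to 3.18 per Mb. All of these held the 1.32 per Mb of all long hosts. The astrocyte, oligodendrocyte, microglia and blood, and fibroblast and endothelial markers include no gene of 200 kb. The members therefore do not tell any of these cell types apart.

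Members lay about equally often on both strands. On the strand of the host lay 274 members and opposite to it 270, so that 50.4% (46.2 to 54.6) were on the gene strand (exact binomial test, two-sided adjusted p = 0.922). In shorter hosts 324 of 637 (50.9%) were on the gene strand, and the odds ratio was 0.980 (0.780 to 1.23, Fisher's exact test, adjusted p = 0.922). Of the members' reads 42.4% were on the gene strand, and 52.4% without the 12 members with the most reads.

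Members were found along the whole host. Of the members 275 (50.6%, 46.4 to 54.7) lay nearer the 5′ than the 3′ end of the host (exact binomial test, two-sided adjusted p = 0.922). In bins of 10% of the span the count ran from 44 to 67. On the gene strand the bin from 10 to 20% held 45 and that from 20 to 30% held 18. On the opposite strand the lowest bin, from 40 to 50%, held 19 and the highest, from 0 to 10%, held 36. The bins were not tested one by one.

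**Figure D5:**
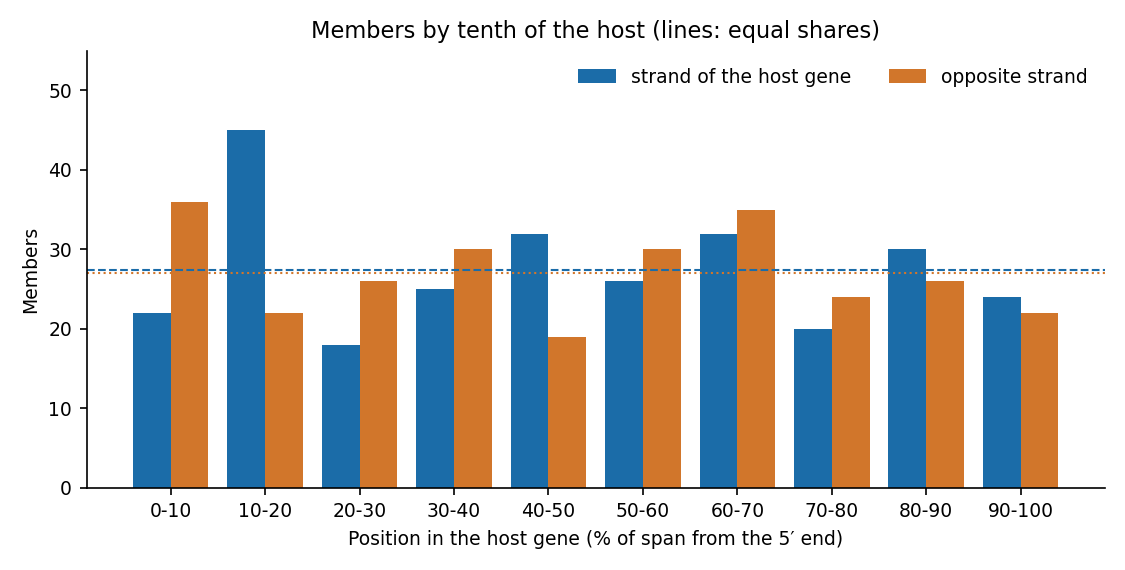
Members in each 10% of the host span from the 5′ end, by strand relative to the host, with dashed and dotted lines at an equal share per bin for the 2 strands. Counts per strand lie between 18 and 45 with no steady rise or fall along the gene.

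The members lay deep in introns. The median distance to the nearest exon was 10.6 kb (quartiles 3.16 and 26.7, up to 129 kb, in Rbfox1), against 1.31 kb in shorter hosts. The rule chose members by host span, and distances were not compared at equal intron length. This contrast is therefore no separate trait of the members. Within 1 kb of an exon lay 65 members, 4 touched one, and 533 were inside a single protein-coding gene. Introns were taken as the gaps between the exons of a host, with the exons of all its transcripts merged. The median length of the intron around a member was 70.5 kb. Introns of 10 kb or more held 89.2% of the members and 88.8% of the intron length, and those of 100 kb or more held 39.2% (35.1 to 43.3) and 40.5%. First introns are often rich in regulatory sequence. The first gap of each host, which need not be the first intron of every transcript, was counted for this. These first gaps held 85 members (15.6%, 12.8 to 18.9) and 15.8% of the length. On each of these 3 measures the share of the intron length lay within the interval of the members' share.

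On the X chromosome, where Smchd1 acts in silencing, there were 17 members in 14 hosts, 11 on the gene strand and 6 opposite. They had 6 to 47 reads and a median of 11, against 14 on the autosomes. They were 3.13% (1.96 to 4.95) of the members, while the X held 4.89% of the long-host length outside exons (exact binomial test, two-sided p = 0.0582, adjusted p = 0.408). The density was 0.845 per Mb (0.492 to 1.35) on the X and 1.35 (1.23 to 1.47) on the autosomes, and in shorter hosts it was 1.35 (0.903 to 1.94) on the X. Of all chromosomes with a long host the X had the lowest density, next to 0.870 on chromosome 8, and chromosome 9 the highest at 1.91. The X hosts with the most reads were Il1rapl2, a synaptic adhesion gene (47), then Gm15155, Nhs, Tenm1 and the channel gene Trpc5 (24 each) and Mageb18 (19).

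As RNA is joined through labelled uridines, the T content of the members was measured on their own strand. The bases were 27.5% A, 20.8% C, 19.4% G and 32.4% T, and a member had 9 to 55 T with a median of 27. The member with the lowest share of T is printed with T in capitals. This Acoxl member, at chr2:127945082-127945163 on the minus strand, had 24 reads and 11.0% T.
Acoxl: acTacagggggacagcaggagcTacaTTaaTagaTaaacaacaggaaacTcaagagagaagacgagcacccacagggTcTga

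T was set against A after the first 2 bases of each member, in tests added after the data had been seen and adjusted over 6 each. Members on the gene strand had 34.5% T (SD 8.08 over 274 members) and 25.7% A, with more T than A in 201 and fewer in 63 (76.1%, 70.6 to 80.9, exact binomial test, two-sided adjusted p = 3.4e-17). Members opposite to the gene had 31.7% T (SD 7.87 over 270 members) and 28.0% A, with more T in 169 and fewer in 91 (65.0%, 59.0 to 70.5, exact binomial test, adjusted p = 2.3e-06). T exceeded A on both strands, and by 5.07 percentage points more (2.88 to 7.27) on the gene strand (permutation test, p = 1e-05, the smallest that the permutations can give, adjusted p = 3e-05). The share of T was higher there by 2.76 percentage points (1.42 to 4.10, permutation test, adjusted p = 0.00014). Among members with no 30-base word in a transcript or in a cluster elsewhere it was higher by 1.93 (0.51 to 3.34, permutation test, adjusted p = 0.00801). In shorter hosts the same difference was 2.28 percentage points (1.02 to 3.54, permutation test, adjusted p = 0.00069). The base composition of the introns as a whole was not measured, so how far members differ from their introns was not tested.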

How the data were processed

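PAR-CLIP libraries of Smchd1-GFP neural stem cells and 2 kinds of control were made, 4 per group. The submitters' processing notes name TopHat2 2.1.0, bcl2fastq and the build mm10. The authors deposited 1 list with a read count for each cluster, not normalized and with 0 columns per sample. How clusters were called, and from which libraries, is stated neither in the labels nor in the list. The name of the list includes Smchd1GFP, but the descriptions of all 12 samples name this same list. Depth per library was therefore not available, and the depth is known only as the sum of 553902 listed reads.

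Cluster positions count from 1 and include both ends, and were checked against GENCODE M21. Density is clusters per Mb of the gene outside all exons. The 7 tests (strand, strand difference, density, reads, position, AC start and X share) were exact or used 100000 permutations (scipy 1.17.1) and were adjusted by Benjamini-Hochberg over the 7, with a threshold of 0.05. Shares have Wilson and counts exact Poisson 95% intervals, odds ratios and mean differences normal ones, which cover counting error only. The tests were tested on simulated data. Named genes were the 12 members with the most reads, hosts of 3 or more members, up to 4 genes with the most members per list, the longest hosts, the X hosts with the most reads, and members on both sides of 1 start. Genes named with no member, the members with the most reads among those sharing no word, and hosts named for a strand split, an extreme of base content or GTAC were chosen after their values were seen. Values of some items that these rules name are not reported here. The members and the 16 gene lists were chosen with earlier results of these data known. Neighbouring pairs, shared words, bases before exonic clusters and T content were added after seeing the data. Alternatives were other span limits, read and exon distance limits, 1 cluster per host or locus, and members that share no word.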

Additional observations from a re-analysis of the deposited data

How the results depend on the processing

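No paired analysis was possible because the list has no column per sample. Of 64 values under other settings, 49 kept their direction and their side of the threshold, and the X share did so under all 9 tried. With 1 cluster per host gene the density ratio was 0.789 (exact conditional rate test, adjusted p = 0.00226). A long gene with several members then counts once, which lowers the ratio by itself, so this p-value is no test of density. The difference in mean log2 reads with 1 cluster per host gene was 0.22 (permutation test, adjusted p = 0.00252). The cluster with the most reads was kept, which raises the value more in long hosts, where several clusters were more often found. With 1 cluster per locus, added after seeing the data, the gene-strand share was 49.6% and the AC odds ratio 1.04. With hosts of 150 kb or more the AC and strand odds ratios were 1.16 and 1.03. With 300 kb or more the AC odds ratio was 1.20 and the share nearer the 5′ end 49.4%. Without members sharing a 30-base word the AC odds ratio was 1.27, the read difference -0.015 and the gene-strand share 49.4%. With reads at or above 14 the share nearer the 5′ end was 48.9% and the strand odds ratio 1.10. At 1000 bases or more from every exon the strand odds ratio was 1.04. Without the 12 members with the most reads, also added later, the read difference was -0.055, with no cluster of shorter hosts taken out. Apart from those with 1 cluster per host, none of these passed the threshold in either direction. Beyond what the choice of clusters does by itself, the cause of these shifts was not tested. Counts of 5 to 19 reads in most members limit the precision of any single cluster, and no setting can separate the groups of libraries.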
